A study of Homo sapiens with 6 samples.

Results

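Genes of mitotic entry, the spindle checkpoint and the kinetochore were followed in LoVo cells with and without DCC-2036. The 60 genes were chosen by symbol for their role in cell division, and all 60 are among the 19223 gene symbols of the deposited RNA-seq table. Where a symbol had several transcripts (191 in all for the 60 genes), the 1 with the largest average value was used. LoVo is an established human cell line of colorectal adenocarcinoma, and DCC-2036 is a small-molecule inhibitor of tyrosine kinases. The 3 Control libraries came from cells kept without DCC-2036, and the 3 DCC-2036 libraries from cells given 2.5 μM. The labels give a treatment time of 48 h, while a legend in the paper names a shorter time. Nothing states that the libraries came from separate cultures, so p-values measure the spread between these libraries, which may be technical.

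Cells enter mitosis when CDK1 bound to an A-type or B-type cyclin becomes active, a step that WEE1 and PKMYT1 hold back and the CDC25 phosphatases release. Chromosomes are then condensed, kinetochores built on centromeres attach them to the spindle, and the checkpoint holds back the anaphase-promoting complex until all are attached. Most of these genes are transcribed in a wave in late cell cycle phases, so that their RNA is known as a sign of proliferation in tumor cells.

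The deposited values are a signal already adjusted between libraries, so read numbers per library are unknown. Column totals of these adjusted values ran from 38997229 to 40587145 in Control and from 43279603 to 48023306 in DCC-2036. The DCC-2036 libraries were less alike than the Control libraries. Over the 12725 tested genes, the median SD between replicates on the log2 scale was 0.228 in DCC-2036 and 0.101 in Control, and over the 60 mitotic genes it was 0.158 and 0.079. Correlations of log2 values across genes, which are not independent replicates, were 0.991 to 0.992 between Control libraries. Between DCC-2036 libraries they were 0.969 for replicates 1 and 3, 0.988 for 1 and 2 and 0.984 for 2 and 3. DCC-2036 replicate 1 lay nearest to Control (0.938 to 0.940) and replicate 3 farthest (0.893 to 0.895). Replicate 2 lay between the other DCC-2036 libraries in 46 of 60 mitotic genes and in 67.6% of all tested genes, while Control replicate 2 lay between its neighbours in 26 of 60 and 41.1%. Zeros set the groups apart as well. Of 45006 transcripts, each was above 0 either in all 3 DCC-2036 libraries (39309) or in none (5697), whereas 3919 were above 0 in only some of the Control libraries. DCC-2036 zeros were thus not independent between libraries, and the spread and p-values may not be those of separate samples. What sets DCC-2036 replicates 1 and 3 apart was not tested. The labels give all 3 DCC-2036 libraries the same dose and time, which the values cannot verify, and if these differed, the group means and p-values would have another meaning. Counts over the 60 genes, and values of several genes that differ between these libraries, are also given without them, while values of the further gene lists are given with all libraries only.

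The labelled cell type was checked against marker genes. KRT8 was the most abundant of 12 colonic epithelial markers, of which 7 passed the filter on low values. CDX1 was listed at 0 in all 6 libraries, and CEACAM5, CEACAM6, VIL1 and LGALS4 stayed under the filter, with LGALS4 at most 1.87 under Control and 7.23, 5.41 and 2.52 under DCC-2036. The summed epithelial value was 104483, 108194 and 115001 under Control and 148344, 163492 and 188450 under DCC-2036, so all DCC-2036 sums were the larger. Most of this came from KRT8, which was called higher, as was CDH1. KRT20 was called lower, at -1.15 (adjusted p = 0.00427, limma), and the other 4 were not called. Of these, KRT18 at 129.8% and EPCAM at 122.1% of Control lay higher without overlap. KRT19 at 103% and CDX2 at 96.4% had overlapping groups. Summed values of 7 fibroblast markers lay between 369.6 and 553.9, with COL1A1 the most abundant. Those of 6 leukocyte markers lay between 226 and 308.5, nearly all from CD68, with PTPRC at 0 throughout. Those of 4 endothelial markers were at most 41.3, with VWF the most abundant. The part of the epithelial shift in the mitotic results was not tested.

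**Figure D1:**
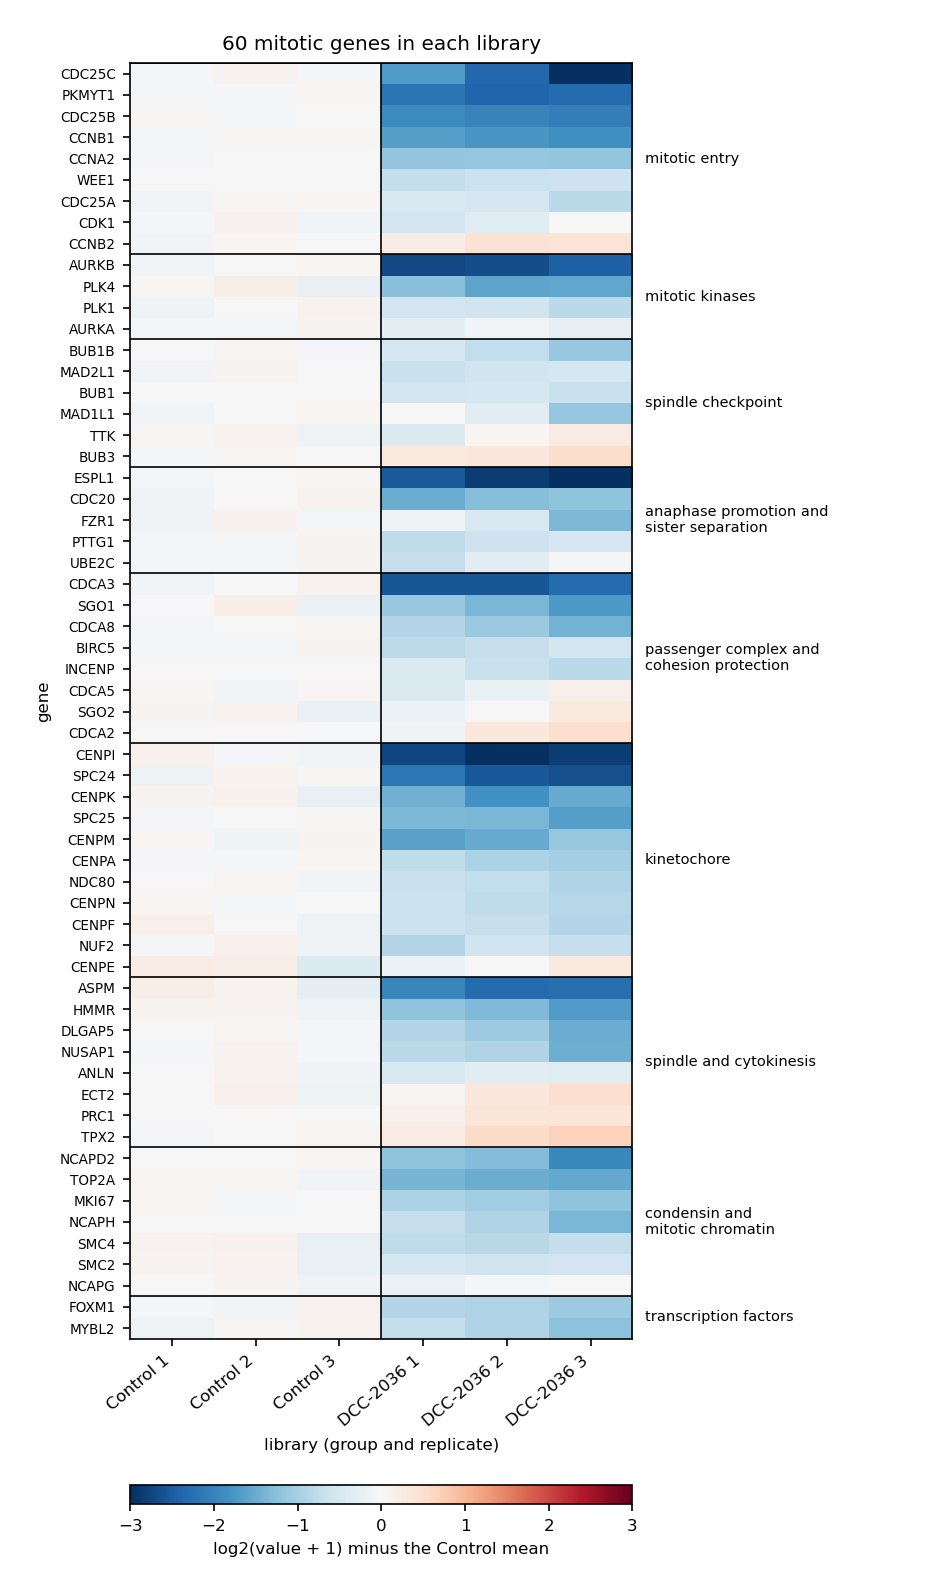
Heat map of the 60 mitotic genes (rows, grouped by function) in the 6 libraries (columns), where color gives log2(value + 1) minus the mean of the 3 Control libraries, from -3 (dark blue) to 3 (dark red). The DCC-2036 columns are mostly blue, with a few paler or red rows such as TPX2 and BUB3, and several genes differ between DCC-2036 replicates 1 and 3.

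Most of these genes were lower with DCC-2036, and none passed the limit for higher. Values were compared as log2(value + 1) with limma over the genes that reached 10 in 3 libraries or more, and a gene was called at an adjusted p under 0.01. All 60 mitotic genes passed the filter, and 43 were called lower, or 71.7%, beside 22.7% of the 12725 tested genes. None were called higher by limma (0 of 60, beside 19.2% of all tested genes), while 4 lay higher and 44 lower at an unadjusted p under 0.05, beside 30.5% and 36.1% of all tested genes. Limma with a trend called 2 higher, beside 22.6%. The median log2 fold change of the 60 genes was -0.77, beside -0.09 over all tested genes. A fold change on this scale understates the change of genes with low values. A log2 fold change of -1 or lower, with the same limit on the adjusted p, was seen in 24 genes, beside 15.2% of all tested genes. In 51 of the 60 genes the groups did not overlap, beside 71.1% of all tested genes. That share by itself therefore says little about the mitotic genes. Of the 60, 52 lay below 0 and 8 above, beside 6851 and 5874 of all tested genes.

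As a share of the summed value of all kept transcripts, the 60 genes together made up 1.08%, 1.08% and 1.05% under Control and 0.612%, 0.599% and 0.561% under DCC-2036. The 3 DCC-2036 shares all lay below the 3 Control shares. Per library, the median of the 60 genes against the Control mean was -0.75, -0.75 and -1.06 on the log2 scale in DCC-2036 replicates 1, 2 and 3, where the median of all tested genes was -0.03, -0.07 and -0.12. Without DCC-2036 replicate 1 or replicate 3, 28.0% and 25.9% of all tested genes were called lower, more than the 22.7% with all libraries. Of the 60 genes, the number called lower was 42 without DCC-2036 replicate 1 and 42 without replicate 3, beside 43 with all libraries. It dropped to 28 without replicate 2, the library between them, to 28 without Control replicate 1 and to 25 without Control replicate 2. The calls over all tested genes dropped too, from 2887 lower to 1708, 1593 and 1514 in these fits (13.6%, 12.7% and 12.1%), so the drop was not particular to the mitotic genes. In all, 25 of the 43 genes stayed called with each library left out in turn, among them 22 of the 24 with a log2 fold change of -1 or lower. Since RNA was taken from whole cultures, fewer cells in G2 or mitosis and less of these RNAs per cell cannot be told apart.

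**Figure D2:**
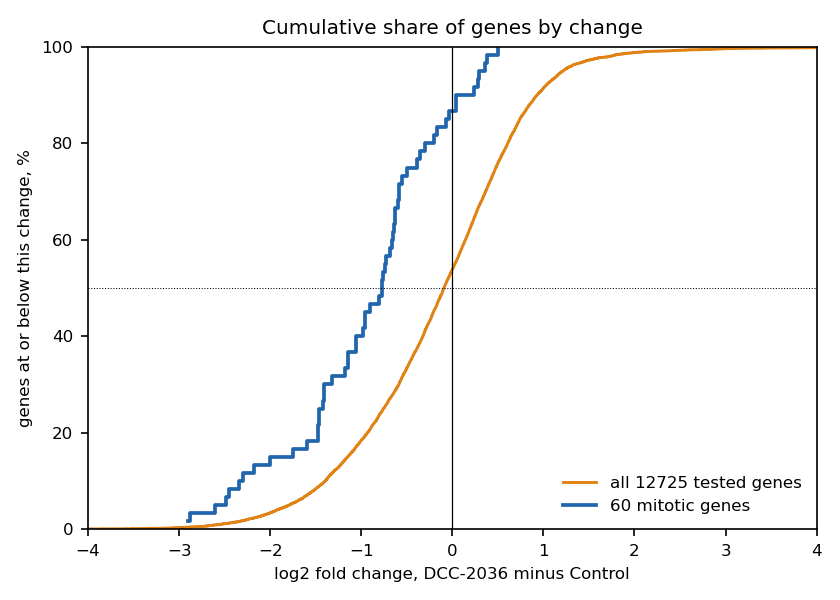
Cumulative share of genes (vertical axis, %) at or below each log2 fold change between DCC-2036 and Control (horizontal axis, drawn from -4 to 4), for the 60 mitotic genes (blue) and all 12725 tested genes (orange). The blue line lies to the left of the orange line, with medians of -0.77 and -0.09, and ends at 0.50.

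**Figure D3:**
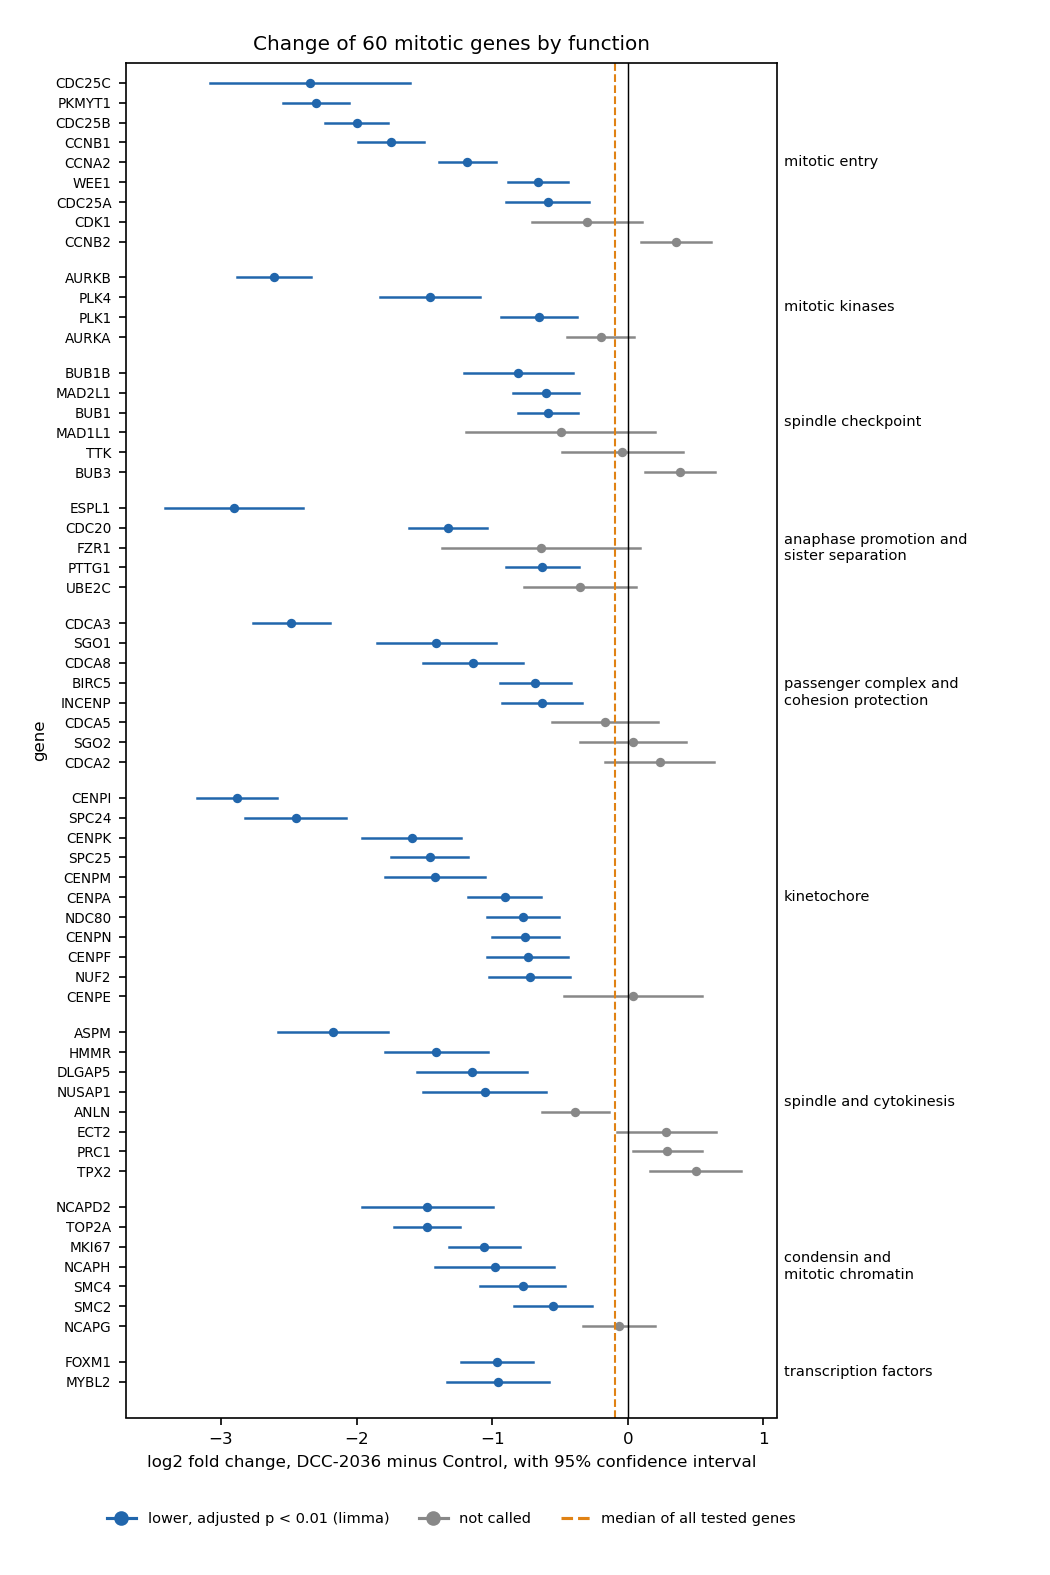
Log2 fold change of each mitotic gene (points) with its 95% confidence interval from limma (lines), grouped by function. Blue marks the 43 genes called lower at an adjusted p under 0.01, gray those not called, and the dashed line the median of all tested genes, -0.09.

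Promoters were read from RefSeq (GRCh38.p14), where 49 of the 60 genes had an entry, as the 250 bases before the start. As background, many G2/M genes carry a cell cycle homology region, such as TTTGAA or TTCGAA, which MuvB complexes bind, and CCAAT boxes, which NF-Y binds. Only TTTGAA and TTCGAA were searched for the homology region, so other forms of it would be missed. On either strand, TTTGAA or TTCGAA was found in 23 of the 49 promoters, or 46.9%, beside 9.41% of the promoters of tested genes and 14.3% of all 35116 promoters. CCAAT was found in 32, or 65.3%, beside 34.8% and 32.0%. Both were present in 17, or 34.7%, beside 3.88% and 5.05%, and in 2 of the 49 promoters the matches overlapped by at least 1 base. Among the genes called lower, 15 of 38 promoters (39.5%) held TTTGAA or TTCGAA and 28 (73.7%) held CCAAT. Among those not called, 8 of 11 (72.7%) and 4 of 11 (36.4%) did, a difference that was not tested. A match describes the letters in this window and does not show a bound site. Shown are the 200 bases before the start, 5′ to 3′ on the gene's strand, of related genes with unlike changes, chosen after their values were seen, with CDC20 and ESPL1 as genes that fell far. Capitals mark these motifs or their reverse complements. The B-type cyclin genes CCNB1 (chr5:69166950-69167149) and CCNB2 (chr15:59104946-59105145), CDC20 (chr1:43358781-43358980), ESPL1 (chr12:53268099-53268298) and the condensin genes NCAPD2 (chr12:6493902-6494101) and NCAPG (chr4:17810779-17810978) all lie on the plus strand.
CCNB1: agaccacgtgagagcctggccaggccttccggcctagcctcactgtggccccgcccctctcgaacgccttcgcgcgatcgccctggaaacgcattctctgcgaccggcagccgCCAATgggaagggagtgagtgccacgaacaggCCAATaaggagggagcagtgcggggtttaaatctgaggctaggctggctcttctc
CCNB2: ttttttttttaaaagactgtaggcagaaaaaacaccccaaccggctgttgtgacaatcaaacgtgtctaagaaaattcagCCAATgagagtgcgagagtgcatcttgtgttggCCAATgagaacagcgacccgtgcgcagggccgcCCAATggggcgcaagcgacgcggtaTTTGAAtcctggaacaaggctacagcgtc
CDC20: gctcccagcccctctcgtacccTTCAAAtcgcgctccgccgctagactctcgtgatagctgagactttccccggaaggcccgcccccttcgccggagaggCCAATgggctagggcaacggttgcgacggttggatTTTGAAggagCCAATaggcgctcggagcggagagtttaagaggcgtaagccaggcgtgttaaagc
ESPL1: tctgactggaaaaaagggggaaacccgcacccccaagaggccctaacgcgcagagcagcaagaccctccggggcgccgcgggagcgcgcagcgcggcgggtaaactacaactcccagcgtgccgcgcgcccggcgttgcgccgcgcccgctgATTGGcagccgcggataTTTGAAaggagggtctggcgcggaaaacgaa
NCAPD2: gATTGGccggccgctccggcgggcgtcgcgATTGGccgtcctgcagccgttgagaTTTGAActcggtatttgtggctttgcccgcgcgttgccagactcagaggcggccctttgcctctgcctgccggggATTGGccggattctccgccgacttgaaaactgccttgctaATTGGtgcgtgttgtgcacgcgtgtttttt
NCAPG: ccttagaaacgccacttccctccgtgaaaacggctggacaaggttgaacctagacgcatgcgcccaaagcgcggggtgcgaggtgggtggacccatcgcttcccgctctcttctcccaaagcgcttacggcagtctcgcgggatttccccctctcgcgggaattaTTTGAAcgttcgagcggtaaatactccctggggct

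In these windows CCNB1 held 2 CCAAT boxes and no TTTGAA or TTCGAA, while CCNB2 held 3 and a TTTGAA starting 29 bases before the start. Other forms of the homology region were not searched, so its absence from CCNB1 is not shown. CDC20 held 2 matches to each motif, and ESPL1 1 to each. NCAPD2 held 4 CCAAT boxes and 1 TTTGAA, and NCAPG 1 TTTGAA and no CCAAT box. Over the 49 promoters, genes with and without either motif were found both among those that fell and among those not called.

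Among the 9 genes of mitotic entry, 7 fell, with a median log2 fold change of -1.18, beside 22.7% and -0.09 over all tested genes. CCNB1, which encodes cyclin B1, the main partner of CDK1, had the highest mean of the group, with values of 6323, 6768 and 6830 under Control and 2114, 1964 and 1862 under DCC-2036. All 3 DCC-2036 values lay below every Control value. The log2 fold change of CCNB1 was -1.75 (limma, adjusted p = 0.000193, standard error 0.10). CCNB2, which encodes the related cyclin B2, had values of 1833, 2029 and 1965 under Control and 2263, 2621 and 2572 under DCC-2036. Here every DCC-2036 value lay above every Control value, by 0.35 on the log2 scale, which did not pass the limit (adjusted p = 0.0275, limma), and by 0.16 with libraries scaled to equal totals (adjusted p = 0.162, limma). The 95% intervals of both changes lie far apart, -1.99 to -1.50 for CCNB1 and 0.09 to 0.61 for CCNB2. Divided by transcript length in kilobases, the mean of CCNB1 was 3061 in Control against 1248 for CCNB2, and 913 against 1597 in DCC-2036. Whether the deposited values are already scaled by length is not given. The undivided means were 6640 against 1943 in Control and 1980 against 2485 in DCC-2036, so the order was exchanged either way. CCNA2, the A-type cyclin of S and G2 phase, kept 44.1% of its Control mean, and CDK1 itself kept 82.2%, with overlapping groups and a log2 fold change of -0.30 (adjusted p = 0.161, limma). For CDK1 this was -0.17 without DCC-2036 replicate 1 and -0.46 without replicate 3 (adjusted p = 0.353 and 0.016, limma). With libraries scaled to equal totals, CDK1 was at -0.49 (adjusted p = 0.0246, limma), not called.

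Genes that act on the inhibitory phosphates of CDK1 fell on both sides of the switch. The phosphatase gene CDC25B had values of 5602, 5279 and 5552 under Control and 1447, 1359 and 1308 under DCC-2036, and its log2 fold change was -2.00 (limma, adjusted p = 0.000178, standard error 0.10). The groups were widely separated, with 25% of the Control mean left. CDC25C, the phosphatase gene with the lowest change of the group, had values of 405, 451 and 412 under Control and 129, 82.3 and 52.6 under DCC-2036. Its log2 fold change of -2.34 (limma, adjusted p = 0.0013, standard error 0.31) had a wider error, as DCC-2036 replicate 1 stood well above replicate 3. Without replicate 1 it was -2.66 and without replicate 3 -2.02, called lower in both. CDC25A, which also acts in S phase entry, fell to 66.8%. Of the opposing kinases, PKMYT1 at the Golgi and endoplasmic reticulum kept 20.3% of its Control mean, a log2 fold change of -2.30 (limma, adjusted p = 0.000178, standard error 0.10). PKMYT1 had values of 2068, 2089 and 2229 under Control and 463, 407 and 428 under DCC-2036. The nuclear kinase gene WEE1 kept 63.2%, a log2 fold change of -0.66 (limma, adjusted p = 0.00154, standard error 0.09). Of the 7 calls, that of WEE1 did not hold without Control replicate 2 (adjusted p = 0.0107, limma). That of CDC25A did not hold without any 1 Control library or without DCC-2036 replicate 2 (adjusted p from 0.0226 to 0.0335, limma), nor with scaling by the median of ratios (adjusted p = 0.0105, limma) or with no filter on low values (adjusted p = 0.0173, limma).

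Of the 4 mitotic kinase genes, 3 fell, with a median of -1.06, beside 22.7% and -0.09 over all tested genes, and the Aurora kinases lay at both ends. AURKB, the catalytic subunit of the chromosomal passenger complex, had values of 1470, 1559 and 1611 under Control and 234, 244 and 283 under DCC-2036. No DCC-2036 library came near a Control library, and 16.4% of the Control mean was left. Its log2 fold change of -2.61 (limma, adjusted p = 0.000178, standard error 0.11) ranked 8 by p-value of the 12725 tested genes. AURKA, which drives centrosome maturation and spindle assembly, had values of 2442, 2483 and 2677 under Control and 2099, 2376 and 2150 under DCC-2036. These groups did not overlap either, but the log2 fold change was -0.20 (limma, adjusted p = 0.134, standard error 0.10). With libraries scaled to equal totals, that of AURKA was -0.39 (adjusted p = 0.0157, limma), still not called. PLK1, the kinase with the highest mean, acts from entry to cytokinesis and had values of 6674, 7347 and 7815 under Control and 4890, 4816 and 4172 under DCC-2036. It kept 63.6%, a log2 fold change of -0.65 (limma, adjusted p = 0.00381, standard error 0.12), while PLK4, which starts centriole duplication, kept 36.2%, a log2 fold change of -1.46 (limma, adjusted p = 0.000646, standard error 0.15). The call of PLK1 did not hold without any 1 Control library or without DCC-2036 replicate 2 (adjusted p from 0.011 to 0.0196, limma).

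Of 6 spindle checkpoint genes, 3 were called lower, with a median of -0.54, beside 22.7% and -0.09 over all tested genes. BUB1, a kinase that recruits checkpoint proteins to kinetochores, had values of 3739, 3718 and 3767 under Control and 2533, 2579 and 2363 under DCC-2036. The Control values were nearly equal, and the log2 fold change was -0.59 (limma, adjusted p = 0.00245, standard error 0.09). BUB1B, which encodes the APC/C inhibitor BUBR1, had values of 2793, 2943 and 2769 under Control and 1952, 1694 and 1280 under DCC-2036. Its log2 fold change of -0.81 (limma, adjusted p = 0.00656, standard error 0.17) was the lowest of the group, with replicate 3 the lowest DCC-2036 library. MAD2L1, whose product binds CDC20, kept 65.9% (adjusted p = 0.00304, limma). BUB3, the WD40 partner of both BUB1 and BUBR1, had values of 5263, 5546 and 5407 under Control and 6625, 6791 and 7804 under DCC-2036, higher without overlap. Its log2 fold change of 0.38 (limma, adjusted p = 0.0196, standard error 0.11) did not pass the limit and was 0.19 with libraries scaled to equal totals. Limma with a trend called BUB3 higher (adjusted p = 0.00537). MAD1L1, the kinetochore anchor of MAD2, and TTK, the kinase at the top of the checkpoint, had overlapping groups. MAD1L1 had values of 787, 843 and 864 under Control and 843, 654 and 371 under DCC-2036, and TTK of 1319, 1396 and 1171 under Control and 969.8, 1341 and 1520 under DCC-2036. DCC-2036 replicate 3 was thus the lowest library for MAD1L1 and the highest for TTK. The log2 fold change of MAD1L1 was -0.50 (adjusted p = 0.178, limma), with -0.75 without replicate 1 and -0.16 without replicate 3, and that of TTK was -0.04 (adjusted p = 0.853, limma), from -0.18 to 0.14 with each library left out. Calls of BUB1, BUB1B and MAD2L1 did not hold without any 1 Control library or without DCC-2036 replicate 2 (adjusted p from 0.012 to 0.0151 for BUB1, 0.021 to 0.0273 for BUB1B and 0.0113 to 0.0186 for MAD2L1, limma).

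Among the 5 genes of anaphase promotion and sister separation, 3 fell, with a median of -0.64, beside 22.7% and -0.09 over all tested genes. ESPL1 encodes separase, the protease that cuts cohesin, and had values of 2587, 2635 and 2726 under Control and 461, 369 and 259 under DCC-2036. All DCC-2036 values lay far below Control, and 13.7% was left. The log2 fold change of -2.90 (limma, adjusted p = 0.000265, standard error 0.21) was the lowest of the 60 genes and ranked 49 from the lowest of all tested genes. PTTG1, which encodes securin, the inhibitor of separase, kept 64.7%, a log2 fold change of -0.63 (limma, adjusted p = 0.00365, standard error 0.11). How reads shared with its close copy PTTG2 were assigned is not given in the sources used here. CDC20, the mitotic activator of the anaphase-promoting complex and the gene with the highest mean of the group, had values of 10092, 10780 and 11621 under Control and 3860, 4437 and 4707 under DCC-2036. The groups did not overlap, and its log2 fold change was -1.32 (limma, adjusted p = 0.000441, standard error 0.12). FZR1, the activator that takes over at mitotic exit, had values of 1533, 1801 and 1609 under Control and 1514, 1189 and 650.1 under DCC-2036, with replicate 1 near Control and replicate 3 far below. The log2 fold change of FZR1 was -0.64 (limma, adjusted p = 0.108, standard error 0.30). It was -0.90 without replicate 1 and -0.29 without replicate 3 (adjusted p = 0.0241 and 0.115, limma), so its size rests on these libraries. UBE2C, the ubiquitin-conjugating enzyme of the complex, had values of 2855, 2928 and 3182 under Control and 1854, 2410 and 2853 under DCC-2036, in which replicate 3 came closest to Control. For UBE2C, the log2 fold change was -0.35 (limma, adjusted p = 0.115, standard error 0.17), with -0.19 without replicate 1 and -0.50 without replicate 3, neither called. With the trend in GC content and length taken out, UBE2C was called lower, at -0.53 (adjusted p = 0.00879, limma). The call of PTTG1 did not hold without any 1 Control library or without DCC-2036 replicate 2 (adjusted p from 0.0148 to 0.0193, limma).

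The passenger complex and cohesion protection group had 5 of 8 genes called lower, with a median of -0.66, beside 22.7% and -0.09 over all tested genes. Counted in it are also CDCA2 and CDCA3, whose roles, given below, are others than the group's name. Within the passenger complex, the partners of AURKB fell less than AURKB itself. BIRC5, which encodes survivin and had the highest mean, had values of 4114, 4170 and 4544 under Control and 2469, 2631 and 2902 under DCC-2036. The groups did not overlap, and its log2 fold change was -0.68 (limma, adjusted p = 0.0025, standard error 0.11). The scaffold gene INCENP kept 64.9% and CDCA8, which encodes borealin, 45.9%, with log2 fold changes of -0.63 and -1.14 (adjusted p = 0.00513 and 0.00139, limma). The 95% intervals of BIRC5 (-0.94 to -0.42), INCENP (-0.93 to -0.34) and CDCA8 (-1.51 to -0.77) do not reach that of AURKB (-2.88 to -2.33). CDCA3, an adaptor in the breakdown of WEE1, had values of 1142, 1191 and 1288 under Control and 202, 202 and 242 under DCC-2036. It was the gene that fell most in the group, at a log2 fold change of -2.48 (limma, adjusted p = 0.000178, standard error 0.12).

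The shugoshin genes, which protect centromeric cohesion, differed. SGO1 had values of 306, 358 and 275 under Control and 141, 120.1 and 93.3 under DCC-2036, a log2 fold change of -1.41 (limma, adjusted p = 0.00126, standard error 0.18), whereas SGO2 had values of 928, 945 and 759 under Control and 775, 862 and 1078 under DCC-2036, which overlapped. The log2 fold change of SGO2 was 0.04 (adjusted p = 0.85, limma) and ran from -0.10 to 0.14 with each library left out, so it has no clear direction. CDCA2, a subunit that targets protein phosphatase 1 to chromatin, had values of 1646, 1657 and 1647 under Control and 1531, 2051 and 2329 under DCC-2036. Replicate 1 lay below all Control libraries and the other DCC-2036 libraries above them, and the log2 fold change was 0.23 (limma, adjusted p = 0.254, standard error 0.17), from 0.10 to 0.41 with each library left out and 0.04 with libraries scaled to equal totals. CDCA5, which encodes sororin, the factor that stabilizes cohesin, kept 90.1% with overlapping groups (-0.17, adjusted p = 0.391, limma), with -0.03 without replicate 1 and -0.33 without replicate 3 of DCC-2036. Calls of BIRC5 and INCENP did not hold without any 1 Control library or without DCC-2036 replicate 2 (adjusted p from 0.0111 to 0.0141 for BIRC5 and 0.0222 to 0.0232 for INCENP, limma).

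Kinetochore genes formed the group with the largest share of calls after the transcription factors, with 10 of 11 lower and a median of -0.91, beside 22.7% and -0.09 over all tested genes. CENPI, a subunit of the inner centromere network, had values of 429.8, 379 and 371 under Control and 57, 46.7 and 53.9 under DCC-2036. All DCC-2036 values stood near 52.5, which is 13.4% of the Control mean, and the log2 fold change was -2.88 (limma, adjusted p = 0.000178, standard error 0.12). Its partners in that network, CENPK, CENPM and CENPN, kept 32.9%, 37.5% and 59.2% of Control. CENPA, the histone H3 variant that marks centromeres, kept 53.3% with a log2 fold change of -0.91 (limma, adjusted p = 0.00105, standard error 0.11). In the NDC80 complex, which binds microtubules, the subunit genes split. NDC80 and NUF2, whose products form the microtubule end, kept 58.6% and 60.5%. SPC24 and SPC25, which form the centromere end, kept 18.3% and 36.4%. SPC24 had values of 580.0, 683 and 661 under Control and 142, 109 and 101 under DCC-2036, a log2 fold change of -2.45 (limma, adjusted p = 0.00021, standard error 0.16), and NDC80 of 898, 927 and 832 under Control and 559, 528 and 469 under DCC-2036, a log2 fold change of -0.77 (limma, adjusted p = 0.00178, standard error 0.11). The 95% intervals of SPC24 (-2.82 to -2.08) and NDC80 (-1.04 to -0.50) do not overlap.

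CENPF, a corona protein with the highest mean of the kinetochore group, had values of 6927, 6324 and 5631 under Control and 3982, 3914 and 3419 under DCC-2036. Control and DCC-2036 did not overlap, and the log2 fold change was -0.74 (limma, adjusted p = 0.00303, standard error 0.12). CENPE, the kinesin that moves chromosomes to the metaphase plate, had values of 1085, 1070 and 702 under Control and 832, 928 and 1144 under DCC-2036. These overlapped, with a log2 fold change of 0.04 (limma, adjusted p = 0.883, standard error 0.21), which ran from -0.17 to 0.15 with each library left out. Some calls did not hold without single libraries. These were Control replicate 1 or 2 for NDC80 (adjusted p from 0.0102 to 0.0114, limma), Control replicate 1 or 2 or DCC-2036 replicate 2 for CENPF (adjusted p from 0.0127 to 0.0159, limma), and any 1 Control library or DCC-2036 replicate 2 for NUF2 (adjusted p from 0.0105 to 0.017, limma). CENPN, singled out after its values were seen, has 5 transcripts in the table, whose log2 ratios of group means ran from -0.90 to 0.01. The transcript kept here lay at -0.76. Transcripts of a gene share reads in such tables, and of the 44 mitotic genes with several transcripts, 42 had ratios of the same sign in all of them, CENPE being the other exception.

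Of 8 spindle and cytokinesis genes, 4 were called lower and 0 higher by limma, beside 22.7% and 19.2% of all tested genes, and 3 uncalled genes lay above 0. ASPM, which acts at spindle poles, had values of 1742, 1657 and 1257 under Control and 395, 309.7 and 319 under DCC-2036. All DCC-2036 values were far below Control, and the log2 fold change was -2.18 (limma, adjusted p = 0.000293, standard error 0.17). HMMR, a spindle assembly factor, DLGAP5, which stabilizes kinetochore fibers, and NUSAP1, a microtubule bundler, kept 37.9%, 45.8% and 49% of Control, all 3 called lower. TPX2, the activator of AURKA on spindle microtubules, had values of 7600, 7648 and 8017 under Control and 9125, 11517 and 12524 under DCC-2036. It had the highest log2 fold change of the 60 genes, 0.50 (limma, adjusted p = 0.0206, standard error 0.14), with every DCC-2036 library above every Control library. Without DCC-2036 replicate 1, the value was 0.63 and passed the limit (adjusted p = 0.0029, limma), and with libraries scaled to equal totals it was 0.31 (adjusted p = 0.0504, limma). Limma with a trend also called TPX2 higher (adjusted p = 0.00588). PRC1, which bundles the central spindle, and ECT2, the exchange factor that starts furrow formation, had log2 fold changes of 0.29 and 0.28 (adjusted p = 0.0487 and 0.146, limma). With equal totals these were 0.10 and 0.09, and ECT2 ran from 0.18 to 0.41 with each library left out. ANLN, the anillin gene of the contractile ring, kept 76.3% without overlap, a log2 fold change of -0.39 (adjusted p = 0.0169, limma). With libraries scaled to equal totals it was called lower, at -0.58 (adjusted p = 0.0039, limma). The call of DLGAP5 did not hold without Control replicate 2 (adjusted p = 0.0102, limma). That of NUSAP1 did not hold without any 1 Control library or without DCC-2036 replicate 2 (adjusted p from 0.0112 to 0.0176, limma).

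In the condensin and chromatin group, 6 of 7 genes fell, with a median of -0.98, beside 22.7% and -0.09 over all tested genes. NCAPD2, a HEAT-repeat subunit of condensin I, had values of 8653, 8665 and 8981 under Control and 3794, 3576 and 2293 under DCC-2036. Replicate 3 was the lowest library, the groups did not overlap, and the log2 fold change was -1.48 (limma, adjusted p = 0.00147, standard error 0.20). NCAPG, the other HEAT-repeat subunit, had values of 4066, 4279 and 3719 under Control and 3532, 3945 and 4057 under DCC-2036. Its groups overlapped, and the log2 fold change was -0.06 (limma, adjusted p = 0.625, standard error 0.11), with -0.12 to -0.005 when each library was left out. The kleisin gene NCAPH kept 51.6%, and the ATPase genes SMC2 and SMC4, which condensin II shares, kept 67.9% and 58.1%. TOP2A, the topoisomerase that untangles sister chromatids, had values of 5750, 5893 and 5325 under Control and 2156, 1997 and 1936 under DCC-2036. Its log2 fold change was -1.48 (limma, adjusted p = 0.000236, standard error 0.10), the lowest p of the group. MKI67, which coats mitotic chromosomes and encodes the Ki-67 proliferation antigen, had values of 16708, 15409 and 15706 under Control and 8286, 7782 and 6953 under DCC-2036. No library of one group reached the other, and the log2 fold change was -1.06 (limma, adjusted p = 0.000624, standard error 0.11). Calls of NCAPH and SMC2 did not hold without any 1 Control library or without DCC-2036 replicate 2 (adjusted p from 0.015 to 0.0191 for NCAPH, limma), for SMC2 also without DCC-2036 replicate 1 or 3 (adjusted p from 0.0102 to 0.0375, limma). That of SMC4 did not hold without Control replicate 1 or 2 or DCC-2036 replicate 2 (adjusted p from 0.015 to 0.0156, limma).

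**Figure D4:**
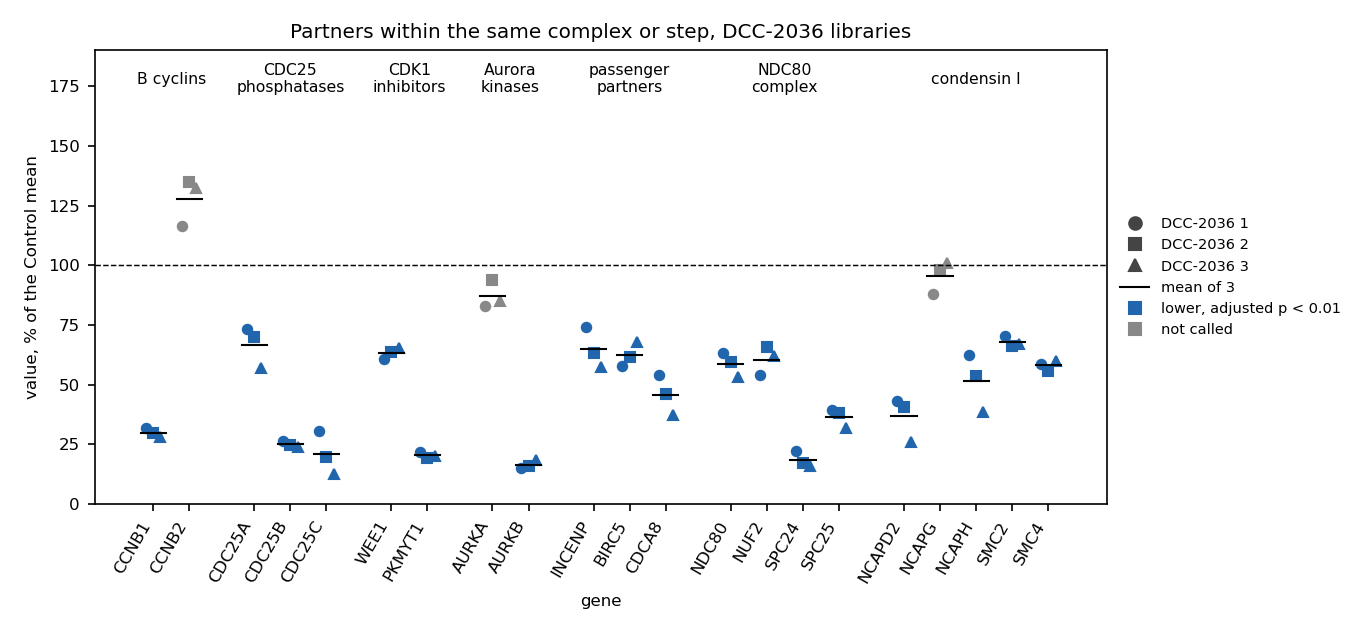
Values of the 3 DCC-2036 libraries as % of the Control mean (vertical axis, linear, dashed line at 100) for genes of the same complex or step, with a bar at the mean of 3. Partners lie at unlike heights, such as CCNB1 at 29.8% beside CCNB2 at 128%, AURKB at 16.4% beside AURKA at 87.2%, SPC24 at 18.3% beside NDC80 at 58.6%, and NCAPD2 at 36.7% beside NCAPG at 95.6%.

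Both transcription factor genes of the G2/M programme fell, beside 22.7% of all tested genes. FOXM1, the forkhead factor of late cell cycle genes, had values of 3572, 3460 and 3887 under Control and 1990, 1911 and 1704 under DCC-2036, a log2 fold change of -0.96 (limma, adjusted p = 0.000831, standard error 0.11). MYBL2, which joins MuvB before FOXM1 does, had values of 3670, 4157 and 4411 under Control and 2424, 2189 and 1725 under DCC-2036, a log2 fold change of -0.96 (limma, adjusted p = 0.00276, standard error 0.16). The groups did not overlap for either gene. The call of MYBL2 did not hold without Control replicate 2 or 3 or DCC-2036 replicate 2 (adjusted p from 0.0113 to 0.0143, limma).

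Differences between the DCC-2036 libraries were specific to genes. Replicate 3 was the lowest of the 3 in 28 of the 60 genes and the highest in 20, and replicate 1 the lowest in 25 and the highest in 33. Over all tested genes, these shares were 43.2% and 42.3% for replicate 3 and 40.5% and 41.7% for replicate 1. The largest gaps were in CDC25C, FZR1 and MAD1L1, where replicate 3 lay below replicate 1 by log2 differences of -1.28, -1.22 and -1.18. On the other side, TTK, UBE2C and CDCA2 lay above it by 0.65, 0.62 and 0.61. GC content of the transcript was set beside this gap as a description. Its Spearman correlation with the difference of replicates 3 and 1 was -0.235 across the 60 genes and -0.067 across 12293 tested genes, all from the same libraries. With the log2 fold change between the groups it was -0.215 and -0.135. With the trend in GC content and length taken out of each library, 45 of the 60 genes were called lower, beside 24.0% of all tested genes.

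Other genes of the same machinery, listed by name, were set beside the 60. Counts in these lists stand beside 22.7% lower, 19.2% higher and a median of -0.09 over all tested genes, and no list was tested against another. Of 28 other kinetochore and centromere genes, 14 fell and 1 rose, with a median log2 fold change of -0.51. KNTC1, a subunit of the complex that brings dynein to kinetochores, had values of 1327, 1546 and 1259 under Control and 398, 308 and 179.6 under DCC-2036, a log2 fold change of -2.29 (limma, adjusted p = 0.00114, standard error 0.29). NSL1, a subunit of the MIS12 complex, had values of 699, 777 and 715 under Control and 956, 1106 and 1179 under DCC-2036, and its log2 fold change was 0.56 (limma, adjusted p = 0.00708, standard error 0.12). Both had groups without overlap. Of 20 other mitotic regulators, 10 fell and 1 rose, with a median of -0.44. The lowest was HASPIN, listed under its older symbol GSG2, a histone H3 kinase that recruits the passenger complex, with values of 725, 639.9 and 678 under Control and 159, 166 and 183 under DCC-2036 and a log2 fold change of -2.00 (adjusted p = 0.000186, limma). The highest called was PPP2R2A, a regulatory subunit of the phosphatase that counters CDK1, with values of 1755, 1906 and 1711 under Control and 2354, 2711 and 2781 under DCC-2036 and a log2 fold change of 0.54 (adjusted p = 0.00643, limma).

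Of 14 core subunits of the anaphase-promoting complex, 1 fell and 2 rose, with a median of -0.005 and 7 on either side of 0. ANAPC7 had values of 1492, 1602 and 1667 under Control and 939, 746 and 435 under DCC-2036, a log2 fold change of -1.23 (adjusted p = 0.00873, limma), and ANAPC10 of 139, 196 and 170.3 under Control and 272, 370.0 and 387 under DCC-2036, a log2 fold change of 1.02 (adjusted p = 0.00449, limma). Of 12 cohesin genes, 1 fell and 1 rose, with a median of 0.27 and 9 above 0. The gene that fell was ESCO2, the S phase acetyltransferase of cohesin, with values of 690.2, 729 and 607 under Control and 127, 146 and 114 under DCC-2036 and a log2 fold change of -2.38 (adjusted p = 0.000193, limma). The gene that rose was NIPBL, the cohesin loader, with values of 985, 937 and 855 under Control and 1315, 1430 and 1802 under DCC-2036 and a log2 fold change of 0.70 (adjusted p = 0.00679, limma). Of the 3 condensin II genes, NCAPD3 fell, with values of 3330, 3253 and 3307 under Control and 1903, 1576 and 923 under DCC-2036 and a log2 fold change of -1.23 (adjusted p = 0.00722, limma), and 2 were not called.

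Of 10 MuvB and pocket protein genes, which form the complexes that repress and then activate mitotic promoters, 5 fell and 0 rose, with a median of -0.40 (limma). The highest of the 5 calls was TFDP1, the dimer partner of E2F factors, with values of 5164, 5369 and 5432 under Control and 3613, 3594 and 3197 under DCC-2036 and a log2 fold change of -0.62 (adjusted p = 0.00265, limma). The lowest was RB1, the retinoblastoma gene, with values of 1076, 1115 and 1093 under Control and 455, 292 and 172 under DCC-2036 and a log2 fold change of -1.94 (adjusted p = 0.00318, limma), with a wide spread between the DCC-2036 libraries. Of 7 genes of early G1 and quiescence, 1 fell and 1 rose. CCND1, the D-type cyclin gene, had values of 12536, 11291 and 12205 under Control and 8388, 7154 and 5826 under DCC-2036, a log2 fold change of -0.77 (adjusted p = 0.00564, limma), and the CDK inhibitor gene CDKN2D of 176, 177 and 184 under Control and 293, 436 and 505 under DCC-2036, a log2 fold change of 1.16 (adjusted p = 0.00364, limma). Among 40 DNA replication genes, 23 fell and 0 rose, with a median of -0.63, beside 43 of 60 and -0.77 in the mitotic genes. The lowest replication call was POLA2, a subunit of primase-polymerase alpha, with values of 779, 922 and 896 under Control and 129, 109 and 50.4 under DCC-2036 and a log2 fold change of -3.26 (adjusted p = 0.000651, limma). The highest was MCM7, a subunit of the replicative helicase, with values of 11273, 12126 and 12523 under Control and 8326, 8525 and 8800 under DCC-2036 and a log2 fold change of -0.48 (adjusted p = 0.00561, limma).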

How the data were processed

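RNA of 6 libraries, 3 Control and 3 DCC-2036, was grouped by the titles in the labels. The authors deposited 1 table with a normalized signal per transcript and library. Reads could not be recovered, so depth is unknown. The aligner, counter, strand setting and genome build are not given in the sources used here. The authors' columns of log2 fold change, p-value and q-value hold their own comparison and were not used.

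Of 45006 transcripts, 191 belong to the 60 genes. Limma 3.58.1 compared the groups as log2(value + 1) (R 4.3.3), without covariates, over 12725 of 19223 symbols with at least 10 in at least 3 libraries. P-values were adjusted by Benjamini-Hochberg over all of these and called under 0.01, two-sided. An exact permutation test of 3 against 3 cannot go below 0.1. The code was tested on simulated data. Tables, motif searches and plots used Python 3.11.15, numpy 2.4.6, pandas 2.3.3, scipy 1.17.1 and matplotlib 3.10.9. GC content and length came from GENCODE 29 for 12293 tested genes (96.6%).

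The members and lists were chosen with earlier results of these data known. Values per library are given for the genes with the lowest and highest log2 fold change, the lowest adjusted p and the highest mean of each functional group, and for the lowest and highest calls of each further list. Other genes with values per library were added after their values were seen. Alternatives were 3 scalings, other filters, each library left out, a replicate block, other limits, the pseudocount 0.1, limma with a trend and the sum over transcripts. Taking out what GC content and length explain was chosen after seeing the data.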

Additional observations from a re-analysis of the deposited data

How the results depend on the processing

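The count of 43 genes called lower lay between 38 and 45 under the 3 scalings, the other filters, a pseudocount of 0.1, an adjusted p limit of 0.05, limma with a trend, the sum over transcripts and a correction for GC content and length. Over all tested genes, the share called lower moved more in these settings. It ran from 12.9% with no filter on low values (38 of the 60) to 33.7% at an adjusted p limit of 0.05 (44 of the 60). Asking also for a log2 fold change beyond 1 in size left 24, beside 15.2% of all tested genes. Without 1 library each, the count ran from 25 to 42, beside 12.1% to 28.0% of all tested genes. The median log2 fold change of the 60 genes ran from -0.87 to -0.74. The count called higher was 1 without DCC-2036 replicate 1, beside 21.3% of all tested genes. It was 0 in the other fits, beside 7.39% to 19.8%. The count called lower fell to 28 without Control replicate 1, to 25 without Control replicate 2 and to 28 without DCC-2036 replicate 2. The shares of all tested genes in these fits were 12.7%, 12.1% and 13.6%. Against 0 called higher, limma with a trend gave 2 (BUB3 and TPX2), beside 22.6% of all tested genes, and an adjusted p limit of 0.05 gave 4 (BUB3, CCNB2, PRC1 and TPX2), beside 28.5%. The cause of these shifts was not tested.

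Scaling to equal totals moved the median of the 60 genes from -0.77 to -0.96 and that of all tested genes from -0.09 to -0.28, and the share of higher genes among all calls from 45.8% to 33.6%. Each library is divided by a single factor, so nearly the same shift in all genes was fixed in advance. Values just above 0 can change sign in this setting, as those of SGO2 and CENPE did. Small higher values shrink, as for CCNB2 (0.35 to 0.16), BUB3 (0.38 to 0.19), PRC1 (0.29 to 0.10), TPX2 (0.50 to 0.31) and CDCA2 (0.23 to 0.04). Small lower values grow, as for CDK1 (-0.30 to -0.49), AURKA (-0.20 to -0.39), UBE2C (-0.35 to -0.54) and CDCA5 (-0.17 to -0.36), all still not called.

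All 43 genes called lower kept their direction in all 18 alternatives, and 25 kept the call in all of them except the fold limit. With no filter on low values, the calls of CDC25A (adjusted p = 0.0173), SMC2 (0.0175), BUB1B (0.0150), INCENP (0.0123) and NCAPH (0.0108, all limma) did not hold. With scaling by the median of ratios, those of CDC25A (0.0105) and SMC2 (0.0134, limma) did not. UBE2C gained a call after correction for GC content and length (-0.53, adjusted p = 0.00879, limma), as did ANLN (-0.52, adjusted p = 0.00261, limma). Others shrank in that setting, such as INCENP (-0.63 to -0.37, still called), FZR1 (-0.64 to -0.37), MAD1L1 (-0.50 to -0.26), CDCA5 (-0.17 to -0.02) and ECT2 (0.28 to 0.12). Of the 17 not called, 4 changed sign. TTK moved from -0.04 to 0.0398 with scaling by the median of ratios, NCAPG to 0.0166 with the same scaling, SGO2 from 0.04 to -0.15 with equal totals and -0.14 after correction for GC content and length, and CENPE from 0.04 to -0.15 and -0.20 in these settings. Without 1 library each, TTK ran from -0.18 to 0.14, SGO2 from -0.10 to 0.14 and CENPE from -0.17 to 0.15. None of the 4 was called in any setting.

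Libraries 1, 2 and 3 of both groups, each less its group mean, had correlations of 0.081, -0.035 and -0.003 over genes. Libraries with unlike numbers had -0.06 to 0.091. With 3 libraries per group, these values cannot show whether the replicate numbers pair the libraries. With the replicate block, 29 of the 60 genes were called lower and 0 higher by limma, and their median was -0.77. Of the 12725 tested genes, 1909 were called lower and 1202 higher in this fit, with a median of -0.09. Without the block, these counts over all tested genes were 2887 and 2442, so the drop in calls was not particular to the mitotic genes. Unknown depth leaves counting error unstated, and the DCC-2036 libraries share all their zeros, so their independence is in doubt.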
